A study of Mus musculus with 13 samples.

Results

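A single library of scramble untreated macrophages was compared with 1 library of unmodified untreated macrophages for H3K27ac, the acetylation of histone H3 that marks active promoters and enhancers. Both held primary bone marrow-derived macrophages of C57BL/6 mice, grown in medium with L929-conditioned medium and taken on day 7 of differentiation without cytokine. The scramble library is the untreated control of a knockdown experiment that also had shJunB and shCEBP-beta cells, each untreated and after 4 h of IFNg at 100 ng/ml. The unmodified library belongs to a cytokine experiment with no shRNA in its labels, whose other cells received IFNg (100 ng/ml), IL-4 (10 ng/ml) or the 2 together, for 2 h and for 4 h. Each of the 13 conditions had 1 library, so the comparison has no replicate check, and intervals on ratios are exact binomial 95% intervals that cover counting error only. The scramble shRNA, the handling that goes with it and the experiment the cells came from cannot be told apart here.

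The members are the islands of enriched reads that the authors called in these 2 of the 13 libraries, merged where they shared at least 1 bp. This gave 32568 regions, of which 23517 were called in both libraries, 6184 in the scramble library alone and 2867 in the unmodified library alone. Raw ChIP reads were summed per region and per protein-coding gene (span plus 1 kb on each side) and divided by median-of-ratios size factors, which gives the normalised reads quoted below. A value was counted as higher or lower once it reached 2-fold and the larger of the pair held 50 normalised reads or more. Where a library had no island, the 5th percentile of its island reads stood in. No fold is given for such genes, except log2 ratios said to rest on the stand-in value.

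H3K27ac is written by the acetyltransferases p300 and CBP and removed by histone deacetylases, and its level at a gene follows the use of that gene's promoter and enhancers. Macrophages carry broad domains of the mark at lineage and lysosomal genes and gain it within hours at cytokine-inducible genes. A scramble shRNA is a hairpin meant to match no transcript; cells that receive one serve as the reference for knockdown cells, while unmodified cells serve as the reference for cytokine treatment.

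The following 4 promoters are printed because their genes stand for the groups described below: Ddit4 and Egln3 for stress and oxygen sensing, Isg15 and Gbp5 for the interferon response. Each line holds the 250 bases before the gene's start, 5′ to 3′ on the gene's strand, from RefSeq GRCm38.p6, with motif matches in capitals. The capitals mark the core ACGTG or GCGTG of the hypoxia response element in Ddit4 (chr10:59951771-59952020, minus strand) and Egln3 (chr12:54203875-54204124, minus strand). They mark the core of the interferon-stimulated response element, a pair of GAAA runs with any 2 bases between them, in Isg15 (chr4:156200819-156201068, minus strand) and Gbp5 (chr3:142496684-142496933, plus strand), with both strands searched and overlapping matches joined.
Ddit4: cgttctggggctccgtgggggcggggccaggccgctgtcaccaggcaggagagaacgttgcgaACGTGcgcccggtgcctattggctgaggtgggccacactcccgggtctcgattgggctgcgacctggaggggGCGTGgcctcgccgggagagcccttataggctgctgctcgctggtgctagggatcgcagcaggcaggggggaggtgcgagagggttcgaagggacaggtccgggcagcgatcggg
Egln3: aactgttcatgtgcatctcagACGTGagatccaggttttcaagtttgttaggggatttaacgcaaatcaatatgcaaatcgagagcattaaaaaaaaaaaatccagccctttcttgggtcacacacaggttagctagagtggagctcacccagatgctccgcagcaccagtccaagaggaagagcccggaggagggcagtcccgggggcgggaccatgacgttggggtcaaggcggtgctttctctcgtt
Isg15: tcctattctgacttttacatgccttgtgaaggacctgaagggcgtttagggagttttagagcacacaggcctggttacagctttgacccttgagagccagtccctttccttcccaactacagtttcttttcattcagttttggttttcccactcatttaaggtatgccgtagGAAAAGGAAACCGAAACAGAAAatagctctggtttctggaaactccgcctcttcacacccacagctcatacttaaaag
Gbp5: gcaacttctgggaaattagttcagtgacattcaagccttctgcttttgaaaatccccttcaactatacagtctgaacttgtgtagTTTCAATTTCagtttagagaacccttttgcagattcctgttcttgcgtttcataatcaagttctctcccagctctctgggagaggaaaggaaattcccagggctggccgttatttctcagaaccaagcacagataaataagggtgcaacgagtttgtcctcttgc
All 250 bases of each window lay inside a called island in both libraries.

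The interferon motif was in the promoter window of 3.34% of the 10691 tested genes that had one, in 7 of 8 interferon-induced GTPases and in 8 of 20 antiviral genes; over all 32851 windows of the RefSeq table it was in 2.98%. The hypoxia core is short and common, at 59.3% of the tested genes, 38.6% of all windows in the table and 23 of 25 glycolysis and hypoxia genes. Genes higher in the scramble library held the interferon motif at 3.33% and the hypoxia core at 59.7%, both close to the shares of all tested genes. Among genes lower in the scramble library, the C/EBP core TTGCNNAA was in 14.02% of windows against 9.08% of all tested genes, and the AP-1 site TGANTCA in 9.79% against 5.63%. The hypoxia core was in 50.0% of the windows of lower genes, and the AP-1 site in 4.19% of those of higher genes. Base content moves with these groups: 7.19% of genes in the lowest of 5 promoter GC groups were lower, against 2.39% in the highest, and its part in the motif shares was not tested. These shares are descriptions of letters in a 250-base window, not of factor binding.

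The libraries were of like depth, with 22013572 reads for scramble and 21712118 for unmodified cells, but differed in spread. Called islands held 68.6% of the scramble reads and 77.5% of the unmodified reads, and covered 219.9 Mb against 183.4 Mb. All 6 knockdown libraries held 65.1% to 73.0% of reads in islands and all 7 cytokine libraries 77.1% to 80.0%, so this property follows the experiment. Of the scramble islands 80.3% overlapped an unmodified island, and of the unmodified islands 90.2% overlapped a scramble island.

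Of 30301 regions with enough reads, 3424 were higher and 2996 lower in the scramble library, which is 21.2% past the 2-fold rule (11.3% higher and 9.89% lower). The median log2 ratio over all regions was 0.09. By gene, 1330 of 13282 were higher and 479 lower, 13.6% in all (10.0% higher and 3.61% lower), around a median log2 ratio of 0.15. Of the 13282 genes 60.6% had a log2 ratio above 0.

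**Figure D1:**
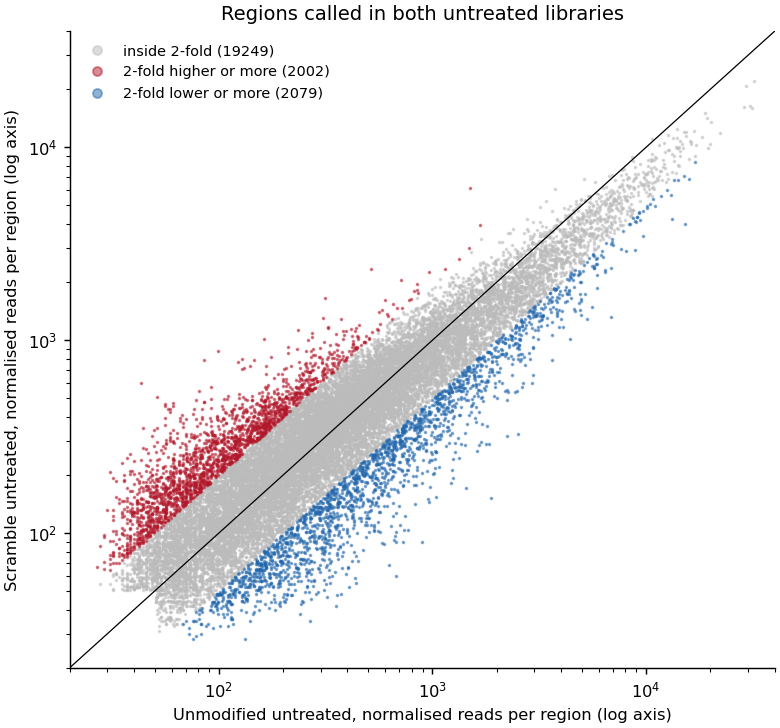
Normalised H3K27ac reads of each region called in both libraries, unmodified untreated on the x axis and scramble untreated on the y axis, both on log axes, with the line of equality. The 2002 regions past 2-fold higher lie mostly at low read numbers, the 2079 past 2-fold lower spread over the whole range, and the strongest regions lie mostly below the line.

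The direction of the difference followed the kind of region. Regions holding a protein-coding promoter were higher in 12.7% and lower in 1.97% of cases. Regions over 10 kb from any protein-coding gene were higher in 9.23% and lower in 15.9%. Among promoter regions the share that was higher grew with promoter GC content, from 7.57% in the lowest of 5 groups to 20.9% in the highest, while the share that was lower went from 5.78% to 0.536%. The median log2 ratio of these groups went from -0.01 to 0.44. The longest regions, from 10400 to 171600 bp, had a median log2 ratio of -0.27, and the strongest of 5 level groups of regions called in both had a median of -0.35, with 10.95% of them lower and 0.643% higher. The Y chromosome with its 5 regions aside, the X chromosome had the lowest share of higher and the highest share of lower regions, with 4.52% of its 819 regions higher and 13.7% lower, and chromosome 4 had the highest share of higher regions, with 15.4% higher and 6.03% lower.

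**Figure D2:**
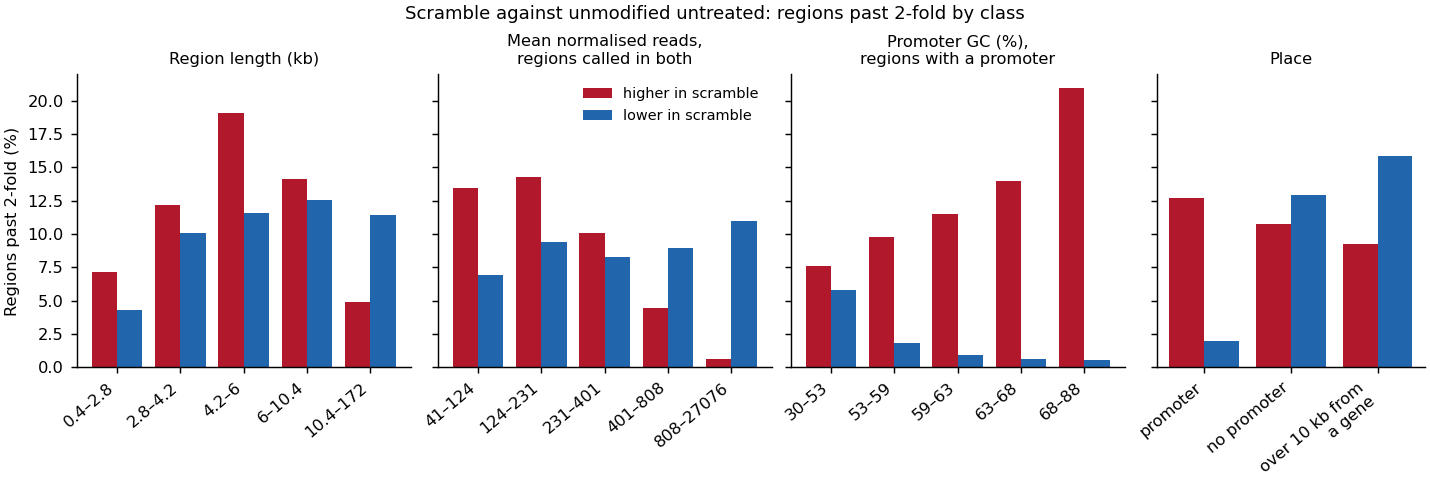
Percent of regions past 2-fold higher (red) and lower (blue) in the scramble library, by region length, by mean normalised reads of regions called in both, by promoter GC content and by place relative to protein-coding genes; the first 3 panels show 5 groups of the regions. Higher regions dominate at GC-rich promoters, and lower regions dominate among the strongest regions and away from genes.

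Called length and reads per kb were compared for higher and lower genes. The 1066 higher genes called in both libraries had a median called length of 6.20 kb in scramble and 2.60 kb in unmodified cells. Their reads per kb of called length differed by a median log2 of 0.19. The 429 lower genes called in both had 11.2 kb against 16.6 kb called, and their reads per kb were lower by a median log2 of -0.79. The median log2 ratio of called length was 1.18 for the higher genes and -0.51 for the lower genes. These medians include a shift of all genes. Over all 12594 tested genes called in both, called length was larger in scramble by a median log2 of 0.30 with a median log2 of -0.27 for reads per kb. Beside that shift, higher genes lay above and lower genes below all genes in both called length and reads per kb. Which part departs more from the shift was not tested. Measured as reads per kb of called length, 82 of the 204 genes named by rule no longer passed 2-fold and 11 changed direction. Many genes described below did not pass on that scale. They include Adm (log2 0.02), Ddit4 (0.37), Bmp2 (0.77), Scd2 (-0.92), Lss (-0.39), Sqle (-0.18), Isg15 (0.54), Gbp5 (0.49) and Ifit3 (0.48). Lcn2 (0.21), Tfrc (0.56), Ccne2 (0.49), Ccnd2 (0.24), Cxcl10 (0.49), Alox15 (-0.68), Hdac9 (-0.30), Crebbp (0.08), Grb10 (-0.44) and Rbfox1 (-0.42) did not pass either. Among those that passed were Vegfa, H2-Q4, Ifi44, Moxd2, Mmp12, Phlda3, Ei24, Cebpa, Mmp8 and Ctsk.

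Hypoxia and glycolysis genes were higher in 19.2% of cases, against 10.0% of all genes. Of 26 measured members 5 were higher (Vegfa, Adm, Pfkl, Slc16a3 and Egln3) and none lower, while the list median was 0.13 against 0.15 for all genes. Pfkl and Slc16a3 did not pass with islands merged over all 13 libraries (log2 0.42 for each). On reads per kb of called length Vegfa alone of the 5 passed, with Slc16a3 at 0.11, Egln3 at 0.39 and Pfkl turned to -0.0651; centred by read level or by promoter GC, Vegfa and Adm passed. Vegfa, the growth factor that drives vessel sprouting, had 1011 normalised reads in scramble and 163 in unmodified cells, a ratio of 6.20 (5.24 to 7.38). Its 5 other knockdown libraries had 595 to 1104 reads and its 6 other cytokine libraries 109 to 198, so all 6 knockdown libraries lay above all 7 cytokine libraries. Its islands spanned 8.20 kb in scramble and 5.00 kb in unmodified cells, with 123 against 32.6 reads per kb.

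Adm, which encodes the vasodilator peptide adrenomedullin, had 271 reads against 83.5, a ratio of 3.24 (2.52 to 4.20). The other knockdown libraries had 247 to 299 reads and the other cytokine libraries 45.7 to 130, again without overlap. Its called length was 7.00 kb against 1.80 kb, and reads per kb were 38.7 against 46.4, so the difference lay in the called length. Ddit4, an inhibitor of mTORC1 induced by stress and low oxygen, had 516 reads against 206, with 337 to 447 in the other knockdown and 74.2 to 213 in the other cytokine libraries. Egln3, an oxygen-sensing prolyl hydroxylase, had 298 against 145 reads and overlapped between experiments: its other knockdown libraries had 166 to 394 reads.

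Signalling genes of the TGF-beta and BMP family were higher in 4 of 21 measured cases (Bmp2, Smad6, Smad4 and Tgfb3; 19.0%, against 10.0% of all genes) and lower in 1 (Tgfbr1), with a list median of 0.30; Tgfb3 did not pass with islands merged over all libraries (log2 0.37). On reads per kb of called length none of the 4 passed (Bmp2 0.77, Smad6 0.29, Smad4 0.64 and Tgfb3 -0.46). Bmp2, the ligand, had 717 reads in scramble and 131 in unmodified cells, a ratio of 5.47 (4.53 to 6.66), with 316 to 810 in the other knockdown and 88.2 to 242 in the other cytokine libraries. Smad6, the inhibitor of BMP signalling, had 2922 against 1008 reads over 60.2 kb and 20.8 kb of islands. Smad4, the shared transcriptional partner of the pathway, had 388 against 161 reads, and its 5 other knockdown libraries (355 to 443) lay above the 6 other cytokine libraries (149 to 207). Tgfbr1, the type I receptor, had 1526 reads in scramble and 3894 in unmodified cells, but the other knockdown libraries had 2237 to 4929 and the other cytokine libraries 1435 to 3603, so its difference did not follow the experiment.

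Growth control and stress lists had few higher members. Integrated stress genes were higher in 1 of 22 cases (4.55%, against 10.0% of all genes) and oxidative stress genes in 2 of 21. Unfolded protein and heat shock genes were higher in 0 of 21 cases, and growth factor signalling genes in 0 of 20. Among p53 targets 2 of 21 were higher (9.52%, near the share of all genes), around a median of 0.15. Phlda3, a repressor of Akt signalling, had 560 reads in scramble and no island in the unmodified library, with 362 to 587 reads in the other knockdown and 44.3 to 280 in the other cytokine libraries. Ei24 had 222 against 61.9 reads and no overlap between experiments (196 to 286 against 57.8 to 85.0). Of 30 cell cycle genes 4 were higher (13.3%, against 10.0% of all genes), around a median of -0.06. Ccne2, an S-phase cyclin, had 187 against 36.1 reads, with 143 to 186 in the other knockdown libraries and islands in only 2 of the other cytokine libraries. Ccnd2, cyclin D2, had 427 against 91.8 reads, but every one of the 11 other libraries had 338 to 1121, so the unmodified untreated library stood alone as low.

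Iron genes were higher in 3 of 18 cases (16.7%, against 10.0% of all genes) and lower in 1, around a median of 0.02. The lower one was Steap3, a ferrireductase, with 2137 against 4388 reads. Lcn2, the siderophore-binding lipocalin, had 427 against 134 reads, with 367 to 464 in the other knockdown and 120 to 192 in the other cytokine libraries. Tfrc, the transferrin receptor, had 439 against 117 reads, and its other knockdown (280 to 355) and other cytokine libraries (106 to 385) overlapped. MHC class I genes had a list median of 0.41, which turned to -0.09 for reads per kb of called length, with H2-Q4 at 209 against 45.4 reads and H2-K1 at 217 against 85.6; these paralogs are near copies, and how their reads were split was not tested.

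**Figure D3:**
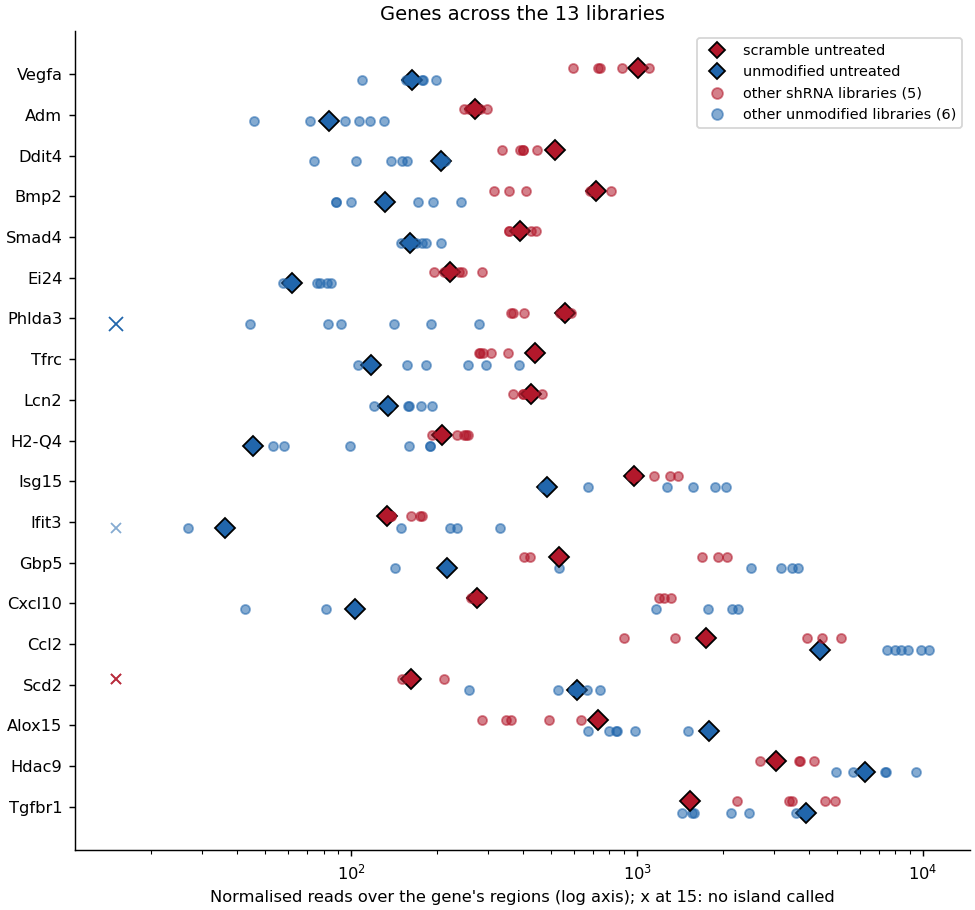
Normalised H3K27ac reads (log axis) over the regions of 19 genes in all 13 libraries: shRNA libraries in red, unmodified libraries in blue, diamonds for the 2 untreated libraries compared, crosses where no island was called. Vegfa, Adm, Ddit4, Bmp2, Smad4, Ei24 and Lcn2 separate by experiment, the interferon genes Gbp5 and Cxcl10 separate by IFNg, and Tgfbr1 does neither.

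Interferon lists had a few members 2-fold higher in untreated scramble cells. Of 28 antiviral genes 20 were above 0, against 60.6% of all genes, with a list median of 0.26. Past 2-fold were 3 of them (Ifi44, Ifit3 and Isg15), which is 10.7%, near the 10.0% of all genes. Of 12 interferon-induced GTPases 10 were above 0, with a median of 0.44. Past 2-fold were 3 of these (Gbp5, Gbp6 and Iigp1), which is 25% against 10.0% of all genes. Gbp6 and Iigp1 had no unmodified island, so their calls rest on the stand-in value, and centred by read level none of the 3 passed (Gbp5 0.98, Gbp6 0.63 and Iigp1 0.79). On reads per kb of called length the medians were 0.03 and 0.13, and neither list had a 2-fold lower member. Isg15, the ubiquitin-like antiviral modifier, had 978 reads in scramble and 484 in unmodified cells, a ratio of 2.02 (1.81 to 2.26). The other untreated knockdown libraries had 949 (shJunB) and 993 (shCEBP-beta) reads for it, so the 3 untreated shRNA libraries lay close together.

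Ifit3, which binds viral RNA, had 134 against 36.1 reads, a ratio of 3.71 (2.54 to 5.54), and Ifi44 had 202 against 40.2. Gbp5, a guanylate-binding protein of cell-autonomous defence, had 535 against 217 reads, a ratio of 2.47 (2.10 to 2.91), and 423 and 402 in the untreated shJunB and shCEBP-beta libraries. Cxcl10, the interferon-induced T cell chemokine, had 276 against 103 reads, and 282 and 262 in those libraries, but its log2 of 1.42 went to 0.00 with islands merged over all 13 libraries. Ifnb1, interferon beta itself, had 194 reads and Iigp1 had 153 reads in scramble, and neither had an island in the unmodified untreated library. Ifnb1 did not pass with islands merged over all libraries (log2 0.79), nor Ifit3 with islands merged within 1 kb (0.86). Iigp1 had only 56.7 and 69.7 reads in the untreated shJunB and shCEBP-beta libraries. Socs1, the feedback inhibitor of interferon signalling, had 663.5 against 304 reads, and a log2 of -0.03 under that merge.

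After 4 h of IFNg the medians of these lists were below 0, as were those of several other immune lists. Scramble cells with IFNg against unmodified cells with IFNg, a pair that shares no library with the untreated pair, had a median log2 of -0.66 for antiviral genes, with 6 of 28 lower by 2-fold and none higher, and of -0.67 for the GTPases, with 2 of 12 lower. In the same pair the medians were -0.74 for nucleic acid sensing, -0.67 for chemokines, -0.65 for MHC class II, -0.62 for alternative activation, -0.50 for interferon receptors and regulators and -0.45 for toll-like receptors. Over all genes of that pair 8.39% were 2-fold higher and 3.08% lower, around a median of 0.04. Gbp5 had 1691 reads in scramble and 3647 in unmodified cells with IFNg, and Cxcl10 had 1188 against 2260. At Gbp5 and Cxcl10 the scramble value was the higher of its pair without IFNg and the lower with it. The difference between the pairs was not tested, since each value is 1 library.

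**Figure D4:**
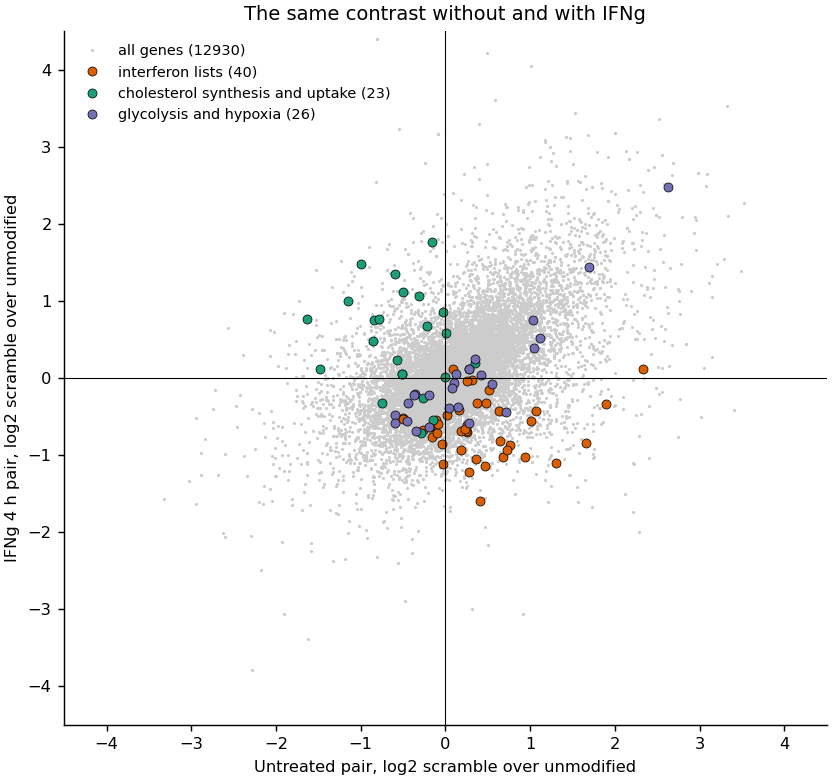
Log2 ratio of scramble over unmodified cells for each gene, untreated on the x axis and after 4 h of IFNg on the y axis; coloured points are members of the interferon, cholesterol and hypoxia lists. All genes scatter around a rising trend, while most interferon genes lie below 0 on the y axis and most cholesterol genes to the left of 0 on the x axis and above 0 on the y axis.

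Cholesterol synthesis genes were lower in 13.04% of cases, against 3.61% of all genes. Of 23 measured members 2 were above 0, against 60.6% of all genes. Lower by 2-fold were 3, Lss and Sqle among them, and none was 2-fold higher. The list median was -0.51, the lowest of the lists apart from the NK cell markers. In the IFNg pair the median was 0.59 and 6 of 23 were 2-fold higher. Lss, lanosterol synthase, had 227 reads in scramble and 636 in unmodified cells, 2.80-fold lower (2.41 to 3.27). Sqle, squalene epoxidase, had 210 against 466 reads, 2.22-fold lower (1.89 to 2.63). Sqle had 277 against 138 reads in the IFNg pair, the opposite direction. Scd2, a fatty acid desaturase counted in the lipid list, had 162 against 617 reads, and the other knockdown libraries (at most 211 reads, 2 of 5 with an island) lay below the other cytokine libraries (258 to 742).

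Macrophage identity and lysosome genes had negative medians with few members past 2-fold. Of 23 macrophage identity genes 5 were above 0, against 60.6% of all genes, with a median of -0.35 against 0.15 for all genes. In this list 1 member was past the rule in each direction. Of 27 lysosome and autophagy genes 9 were above 0, with a median of -0.44, and 2 were lower by the rule. Lgals3, galectin-3, had 8354 against 17000 reads over 65.6 kb of islands in both libraries, or 127 against 259 reads per kb. Ctsk, a cathepsin that shares its region with Ctss, had 5668 against 13045 reads. Cebpa, the myeloid C/EBP factor, went the other way with 1826 against 843 reads, with a log2 of 1.11 in the untreated pair and 1.15 in the IFNg pair. These lists hold strongly marked genes: centred within 20 bins of read level, an alternative added after the values were seen, the macrophage identity median was -0.01 and the lysosome median -0.30.

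Inflammatory and matrix genes were mixed. Ccl2 and Ccl7, monocyte chemokines in 1 shared region, had 1736 against 4352 reads, with 900 and 1353 in the untreated shJunB and shCEBP-beta libraries. All 5 other knockdown libraries (900 to 5147) lay below all 6 other cytokine libraries (7463 to 10489), while the unmodified untreated library (4352) lay among the knockdown values. Alox15, a lipoxygenase of alternatively activated macrophages, had 731 against 1785 reads, with 287 to 635 in the other knockdown and 673 to 1507 in the other cytokine libraries, so the scramble value lay above the lowest cytokine library. Tlr7, the endosomal RNA sensor, had 3116 against 7053 reads, and its other knockdown (2168 to 4004) and other cytokine libraries (3334 to 6824) overlapped. Of 25 adhesion and matrix genes 5 were lower (20.0%, against 3.61% of all genes). They included Mmp12, macrophage elastase, with 754 against 2001 reads, and Mmp8, with 2007 against 4932. The other knockdown and other cytokine libraries overlapped for Mmp12 (516 to 1274 and 505 to 1336) and for Mmp8 (863 to 2643 and 573 to 1969). At both genes the unmodified untreated library lay above every other library, so these differences did not follow the experiment. In the IFNg pair Mmp12 had a log2 of -0.39 and Mmp8 of 0.50. Mmp9 was higher, with 211 reads against no island.

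Of the enzymes that set the mark, Hdac9, a class II deacetylase, had 3064 against 6248 reads, with 2699 to 4140 in the other knockdown and 4955 to 9454 in the other cytokine libraries. Crebbp, which encodes CBP, had 355 against 68.0 reads, but its log2 of 2.38 became 0.72 with islands merged over all libraries. The genes targeted elsewhere in the knockdown experiment were inside 2-fold: Junb had 5594 against 5375 reads and Cebpb 2705 against 1872. No AP-1 or BATF gene of 16 was past the rule.

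**Figure D5:**
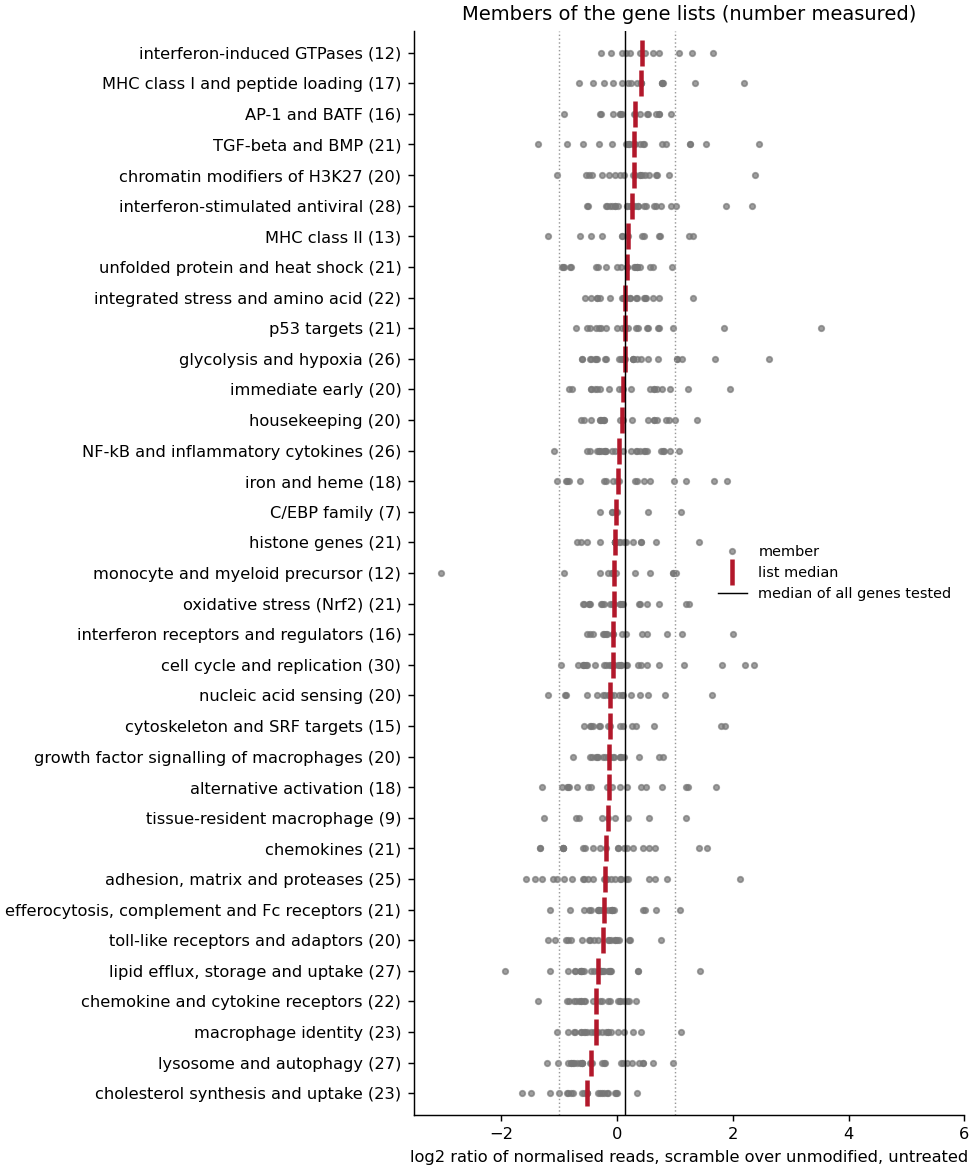
Log2 ratio of scramble over unmodified untreated cells for each measured member of the gene lists (grey points), with list medians (red bars) and the median of all genes tested (black line at 0.15); dotted lines mark 2-fold. Among the lists plotted, which leave out markers of other cell types, cholesterol, lysosome and macrophage identity lie lowest and interferon-induced GTPases and MHC class I highest, and single members reach far beyond their list's median.

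The largest single differences were at genes with little mark in 1 of the libraries. Among genes called in both, Sh3d21 had 1111 against 99.0 reads and its neighbour Eva1b, in part the same region, 874 against 99.0; Klhl36 had 474 against 60.8, and Exosc6 with its neighbour Gm38523 349 against 44.3. All 4 had every other knockdown library above every other cytokine library. Sh3d21 and Eva1b did not pass with islands merged within 1 kb (log2 0.96 and 0.90), and on reads per kb of called length Exosc6 turned to -0.26 and Klhl36 went to 0.11. Cp, ceruloplasmin, had 546 against 51.6 reads, but 270 to 1009 in the other cytokine libraries, and its direction turned to -0.34 with islands merged over all libraries. Called in scramble alone were Rbpms (429 reads) and Chadl (411 reads). At the low end Rbfox1 had 43.7 against 436 reads, Moxd2 123 against 747.5 and Grb10, an adaptor of insulin signalling, 265 against 2033. For Moxd2, and for Rbfox1 with islands in 3 of the 5, the other knockdown libraries all lay below the other cytokine libraries. For Grb10 they overlapped.

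Away from genes, the highest ratio was at chr7:68678401-68697800, 39.2 kb from Arrdc4, with 600 against 43.3 reads over 19.4 kb and 1.60 kb of islands. The region chr11:20925201-20942000, 93.3 kb from Lgalsl, had 791 against 85.6 reads, yet 1714 in unmodified cells with IFNg for 4 h. The lowest, chr13:75157201-75163600, 22.3 kb from Pcsk1, had 90.2 against 896 reads. The region chr15:63648001-63672600, 103.4 kb from Gsdmc, had 172 against 1441 reads, and its other knockdown libraries (134 to 616) lay below its other cytokine libraries (650 to 2090).

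The 11 other libraries show how far the pair's differences go with the experiment, although 6 of them are unmodified cells with cytokine and 3 are knockdown cells with IFNg. Of the 1330 higher genes 527 (39.6%) had all 5 other knockdown libraries above all 6 other cytokine libraries, against 10.3% of all tested genes. Of the 479 lower genes 52 (10.9%) had them all below, against 6.71% of all tested genes. By region, 853 of the higher (24.9%) and 262 of the lower (8.74%) did so, against 7.11% and 5.42% of all tested regions. In the IFNg pair the higher genes had a median log2 of 0.88 and the lower genes of -0.45. By region, 37.6% of the higher regions measured there were 2-fold higher, against 11.2% of all, and 23.1% of the lower were 2-fold lower, against 7.77% of all. Across 12192 genes called in all 4 libraries the log2 ratios of the pairs had a Pearson r of 0.51 and a Spearman rho of 0.50, across genes that share libraries and are not independent; 25 of these genes were past 2-fold in opposite directions.

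The experiment effect was fitted with edgeR's quasi-likelihood test over regions and genes called in all fitted libraries, with IFNg as a term. With the scramble and unmodified libraries, untreated and with IFNg, 0 of 12542 genes and 0 of 16386 regions had a Benjamini-Hochberg adjusted p under 0.05. These 4 libraries leave the fit a single residual degree of freedom, so 0 calls does not show that the experiments were alike. At an unadjusted p under 0.05 there were 1567 genes higher and 1121 lower, and 1646 regions higher and 1606 lower. DESeq2's Wald test on the same 4 libraries called 176 genes higher and 308 lower, and 174 regions higher and 362 lower. With the 4 shJunB and shCEBP-beta libraries added, edgeR called 2253 of 12420 genes higher (18.1%) and 2259 lower (18.2%), and 479 and 220 of these reached 2-fold. It called 2485 regions higher (15.9%) and 2618 lower (16.8%). That fit still has 2 unmodified libraries, takes knockdowns of different genes as repeats of 1 group and holds the compared pair.

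The 8-library fit holds the pair by which the genes below were chosen, so its p-values are not separate support for the pair's differences. In the 8-library fit Adm had a log2 effect of 1.59 (SE 0.10, edgeR adjusted p = 0.00058), Vegfa of 2.18 (SE 0.31, edgeR adjusted p = 0.0021) and Lcn2 of 1.65 (SE 0.11, edgeR adjusted p = 0.00058). Scd2 had -1.85 (SE 0.14, edgeR adjusted p = 0.00061) and Alox15 -1.45 (SE 0.19, edgeR adjusted p = 0.0016). The fit assumes the same experiment effect without and with IFNg, so it does not test the untreated pair alone. For Gbp5 and Sqle the untreated and the IFNg pair went in opposite directions. Several genes past 2-fold in the untreated pair missed the threshold in the fit: Gbp5 had -0.25 (SE 0.30, edgeR adjusted p = 0.53) and Isg15 0.12 (SE 0.26, edgeR adjusted p = 0.74). Sqle at -0.47 (SE 0.46, edgeR adjusted p = 0.45) and Tgfbr1 at -0.20 (SE 0.26, edgeR adjusted p = 0.57) did so too. Cxcl10, which was higher in the untreated pair, had -0.52 (SE 0.15, edgeR adjusted p = 0.026).

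Markers of other cell types were sparse for some types and not for others. Of 10 osteoclast markers 9 were measured, with 26598 reads in scramble and 46435 in unmodified cells and a median of -0.43. Of 10 dendritic cell markers 8 were measured, with 11456 and 14347 reads and a median of -0.28. Each of these lists had 1 member 2-fold higher and 1 lower. Of 7 NK cell markers 1 was measured (Klrk1, 187 reads in unmodified cells and no island in scramble), of 10 T cell markers 5, of 8 B cell markers 4 and of 10 neutrophil markers 4. The neutrophil list summed to 3223 reads in scramble and 5656 in unmodified cells, of which Mmp8 made 2007 and 4932. Of its 4 measured members 3 were above 0 (median log2 0.56), as were 60.6% of all genes. The erythroid and megakaryocyte list summed to 3949 and 4365 reads, of which Vwf made 2947 and 3875. Of its 5 measured members 4 were above 0 (median 0.75), and Epor and Itga2b were 2-fold higher. Neither of these 2 genes had an unmodified island, so their calls rest on the stand-in value, and centred by read level neither passed. Of 8 endothelial markers 4 were measured, with 5598 and 5022 reads in all and a median of 0.82. That median was -0.13 with islands merged over all libraries and 0.006 with genes called in both. Flt1 (257 reads against no island) and Pecam1 (2608 against 840 reads) were higher, but Flt1 turned to -0.25 with islands merged over all libraries. Neither passed on reads per kb of called length (Flt1 0.67 and Pecam1 0.54). Kdr went the other way inside 2-fold, with 1871 against 3324 reads (log2 -0.83), and Cdh5 had a log2 of 0.006. The 23 macrophage identity genes, all with islands in both libraries, summed to 115186 and 157698. Reads cannot separate more cells with the mark from more mark per cell, and the part of other cell types in the differences was not tested.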

How the data were processed

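The data are H3K27ac ChIP-seq islands of 13 libraries, of which 2 make the main comparison. The submitters' processing notes name Bowtie2 2.2.6, SICER 1.1 and the mm10 (GRCm38) build. The deposited counts are raw ChIP and control reads per island, with no scaling. The deposited p-values, FDR values (0.00999 at most) and ratios (fold over control) are the authors' own.

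Library totals came from the deposited fold values, using the smallest control total that returns whole numbers, 14110230 reads (the next is 28220460). They enter only the percent of reads in islands and 1 alternative scaling. Reads of the other 11 libraries were apportioned to the regions by overlap and divided by size factors of their own. Genes are protein-coding spans of RefSeq GRCm38.p6 plus 1 kb; 13560 of 21887 had a region, and 47.2% of those tested share one with a neighbour. All 804 genes of 46 lists were matched.

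Ratios were computed in Python 3.11.15; edgeR 4.0.16 (adjusted p by Benjamini-Hochberg) and DESeq2 1.42.0 ran in R 4.3.3. The size rule and the edgeR fit were tested on simulated data. Named genes were the 10 highest and 10 lowest ratios among genes called in both with at least 200 reads, the 5 strongest called in either library alone, Junb and Cebpb, and in each list up to 5 past the rule, plus up to 3 others with most reads where fewer than 3 passed. Named regions were the 3 highest and 3 lowest over 10 kb from a gene. The members and lists were chosen with earlier results of these data known; the hypoxia motif, the plotted genes and the centring by level or GC were chosen after seeing the data. A gene that the rule names is not reported here.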

Additional observations from a re-analysis of the deposited data

Results flagged for a closer look

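Genes past 2-fold in opposite directions in the untreated and the IFNg pair were looked for among the genes named by rule, and 4 met this; with 1 library per value the difference between the pairs was not tested. Gbp5 had a log2 ratio of 1.30 without and -1.11 with IFNg. Ifi205, an interferon-inducible DNA sensor, had 1.64 and -1.33, and Mmp9 had 2.13 and -1.51. Neither Ifi205 nor Mmp9 had an island in the unmodified untreated library, so 1.64 and 2.13 rest on the stand-in value. With islands merged over all libraries Ifi205 did not pass without IFNg (0.83). Sqle had -1.15 without and 1.00 with IFNg.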

How the results depend on the processing

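With reads in called islands as the scale, 5342 regions were higher and 1882 lower, 2157 genes higher and 267 lower, and 13 list members lower; the higher share of calls went from 53.3% to 73.9% (regions) and from 73.5% to 89.0% (genes), and the medians from 0.09 to 0.32 and from 0.15 to 0.39. With at least 200 reads, 1442 regions were higher and 1878 lower, and with regions called in both 2002 were higher. On reads per kb of called length, 1363 regions were higher and 681 lower (66.7% higher), 750 genes higher and 162 lower, and 15 list members higher and 12 lower (59 and 28 in the main analysis). Control subtraction gave 50 list members lower. Centring by level, added after seeing the data, left 2045 regions (34.0% of calls) and 503 genes (43.0%) higher with 26 list members; centring by promoter GC, also added, left 767 genes (60.9%) and 31 members higher.

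Directions turned for Mamdc2 (0.45), Mmp13 (0.66), Ly96 (0.0735), Il1a (-0.66), Pfkl (-0.0651), Cish (-0.0256), H2-DMb1 (-0.87), Tgfb3 (-0.46), Gm38523 and Exosc6 (-0.26 each) and Dnm1 (-0.27) per kb, for Socs1 (-0.0339), Ccl8 (-0.89), Flt1 (-0.25) and Cp (-0.34) with islands merged over all libraries, and for C3 (-0.20), Cd247 (-0.0093) and Ccl8 (-0.18) with a 10 kb window. The cause was not tested.

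Against 0 calls by edgeR on 4 libraries, DESeq2's Wald test called 174 regions higher and 362 lower and 176 genes higher and 308 lower. With 8 libraries edgeR called 2485 and 2618 regions and 2253 and 2259 genes; without shJunB 1887 and 1913 regions and 1864 and 1683 genes; without shCEBP-beta 1396 and 1327 regions and 1462 and 1246 genes. Shared islands, 80.3% and 90.2% in the main analysis, were 71.6% of scramble and 88.1% of unmodified islands at 50% overlap, and 83.5% and 88.0% with a stricter island FDR. No paired analysis was possible because no condition has numbered replicates; the edgeR fits take IFNg treatment as a term instead. Islands hide reads outside them, so a gene with no island is below the authors' threshold, not without the mark.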
